A study of Mus musculus with 96 samples.

Results

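Hematopoietic cells (HCs) of the mouse heart were compared between day 1 (D1) after acute myocardial infarction (AMI) and day 0 (D0), at the level of mature microRNAs (miRNAs). The data are 7 small RNA libraries, 3 from D0 and 4 from D1, of 96 libraries in a series that also sampled cardiomyocytes (CMs), endothelial cells (ECs) and fibroblasts (FBs) and later days. All libraries labelled HC with Day 0 or Day 1 were taken, and a library with fewer than 100000 mature miRNA counts was dropped. This removed D0 replicate 3, which held 18286 counts, and every D0 value below rests on 3 libraries. The mice were male C57Bl/6J, aged 12 to 14 weeks. The D1 group was killed 1 day after permanent ligation of the left anterior descending coronary artery, and the D0 group had no infarction and, as far as the sources say, no sham operation, so surgery and infarction cannot be told apart. HCs were the CD45+ cells bound by magnetic beads after collagenase digestion of the heart and removal of CMs by centrifugation. The RNA of 3 mice (2 if a sample was lacking) went into each library, so p-values measure the spread between such pools, not between single animals.

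Depth differed between the groups. The D0 libraries held 26449253 to 29504666 mature counts and the D1 libraries 4684153 to 9808466. Reads without a match to a mature miRNA made up 34.3% to 39.6% of each D0 library and 52.1% to 73.8% of each D1 library. At D0, 932 to 994 of the 1978 listed miRNAs had at least 1 count, against 769 to 891 at D1. The sum of 7 miRNAs that mark hematopoietic cells (both arms of miR-142a and miR-223, with miR-150-5p, miR-342-3p and miR-155-5p) was 0.757% to 1.11% of mature counts in HCs at D0 and 1.94% to 2.68% at D1. In the other cell types at D0 the same sum was 0.262% to 0.297% (ECs), 0.0269% to 0.0297% (FBs) and 0.00519% to 0.0161% (CMs), so the sum was highest in the cells labelled HC. This did not hold for each marker. In CPM (mature counts scaled to a common library total), miR-150-5p was 2242 to 4024 in HCs at D0 and 2195 to 2584 in ECs at D0, and miR-342-3p 298 to 439.5 and 300.8 to 349, so these lymphocyte markers overlapped between both cell types. Markers of other heart cells were also abundant in the HC libraries. The sum of 4 CM markers (miR-1a-3p, miR-133a-3p, miR-208a-3p and miR-499-5p) was 8.58% to 11.7% of mature counts at D0 and 6.36% to 13.1% at D1, against 60.3% to 70.9% in CMs at D0. The sum of both arms of miR-126a, the EC marker, was 5.67% to 9.18% at D0 and 3.32% to 5.69% at D1, and that of 5 FB and mural cell markers (miR-199a-3p, miR-199a-5p, miR-214-3p, miR-143-3p and miR-145a-5p) was 2.62% to 3.66% and 1.26% to 1.79%. None of these markers was at 0. In pooled cells, fewer cells of a type and less RNA per cell cannot be told apart, and the part of these cells in the changes below was not tested.

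MiRNAs are short RNAs that sit in Argonaute proteins and lower the output of messenger RNAs that pair with their seed, bases 2 to 8. Each hairpin precursor gives a 5p and a 3p arm, of which 1 is usually kept at a much higher level. Blood cells carry a characteristic set. MiR-142 is present in all leukocytes and miR-223 in neutrophils and monocytes, while miR-150 and miR-342 mark lymphocytes and the miR-125a, miR-99b and let-7e cluster is rich in macrophages. MiR-146a, miR-155, miR-21, miR-132 and miR-147 are known to be induced by inflammatory signals, and miR-210 is a direct target of hypoxia-inducible factor. CD45+ cells of an uninjured heart are mostly resident macrophages, and neutrophils and monocytes enter in the first days after an infarction.

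The sequences below are the mature forms given by RefSeq on GRCm38.p6, written 5′ to 3′ with the seed in capitals. The first set holds the miRNAs higher at D1 on which the results turn, with miR-20a-5p and miR-93-5p, which share the seed of miR-106b-5p.
miR-210-3p: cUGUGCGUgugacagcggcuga
miR-147-5p: uGGAAACAuuucugcacaaacuag
miR-340-5p: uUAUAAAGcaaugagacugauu
miR-223-3p: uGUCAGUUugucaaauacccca
miR-7a-5p: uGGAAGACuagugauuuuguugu
miR-7b-5p: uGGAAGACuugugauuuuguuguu
miR-142a-3p: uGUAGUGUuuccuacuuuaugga
miR-142a-5p: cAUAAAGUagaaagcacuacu
miR-106b-5p: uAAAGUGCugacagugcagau
miR-20a-5p: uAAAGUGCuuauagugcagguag
miR-93-5p: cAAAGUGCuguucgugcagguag
The second set holds those lower at D1, in which miR-125a-5p and miR-125b-5p share 1 seed, the 99 and 100 miRNAs another, and so do both miR-146 sequences.
miR-125a-5p: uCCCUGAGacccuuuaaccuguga
miR-125b-5p: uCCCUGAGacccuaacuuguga
miR-99a-5p: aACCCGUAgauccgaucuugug
miR-99b-5p: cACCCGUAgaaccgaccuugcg
miR-100-5p: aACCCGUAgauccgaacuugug
miR-146a-5p: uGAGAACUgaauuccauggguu
miR-146b-5p: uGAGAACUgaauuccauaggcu
The last set is shown because members with the same seed moved in opposite directions.
miR-148a-3p: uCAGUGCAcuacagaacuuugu
miR-148b-3p: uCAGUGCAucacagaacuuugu
miR-152-3p: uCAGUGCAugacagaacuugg
miR-130a-3p: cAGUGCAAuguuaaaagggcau
miR-130b-3p: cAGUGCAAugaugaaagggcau
miR-301a-3p: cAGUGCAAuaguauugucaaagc

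On the same build, Mir210 lies at chr7:141221384-141221493 on the minus strand, in no other annotated gene, and Mir147 at chr2:122640803-122640881 on the plus strand, in an exon of AA467197. Mir340 is at chr11:50069702-50069799 in an intron of Rnf130, Mir142 at chr11:87756864-87756927 in an intron of Mir142hg and Mir223 at chrX:96242817-96242926 in an exon of the transcript F630028O10Rik, all on the plus strand and on the strand of their host. Mir125a and Mirlet7e are 1 cluster, at chr17:17830812-17830879 and chr17:17830352-17830444, within Spaca6. Mir106b, a minus strand gene at chr5:138165737-138165818, sits within an intron of Mcm7, a gene of the DNA replication machinery.

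D1 changed a large share of the HC miRNAs. Of 635 miRNAs tested, 328 (51.7%) passed edgeR's quasi-likelihood test at a Benjamini-Hochberg adjusted p under 0.05, 148 of them higher (23.3% of those tested) and 180 lower (28.3%) at D1. The 3 D0 and 4 D1 libraries did not overlap for 334 miRNAs (52.6%). Changes of at least 2-fold passed the test for 115 miRNAs in the upward and 108 in the downward direction. The median log2 fold change over all tested miRNAs was -0.11. Of 166 miRNAs whose mean level reached 100 CPM, 107 were called (64.5%), 32 higher and 75 lower. This split depended on scaling. Values are given as normalised CPM, in which library sizes were multiplied by TMM factors, and these factors were 0.751 to 0.783 for D0 and 1.03 to 1.10 for D1. With scaling by library size alone, 335 miRNAs were called, 238 higher and 97 lower, the median was 0.37, and higher calls rose from 45.1% to 71.0% of all calls. With the D0 and D1 libraries alone in the fit, 509 miRNAs were tested, and 171 were higher and 139 lower. Changes below are those after TMM scaling, tested against 0, and the median was not subtracted from them. The direction of small changes therefore depends on the scaling. Counts of calls in the lists below are read against the 23.3% higher and 28.3% lower over all tested miRNAs.

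**Figure D1:**
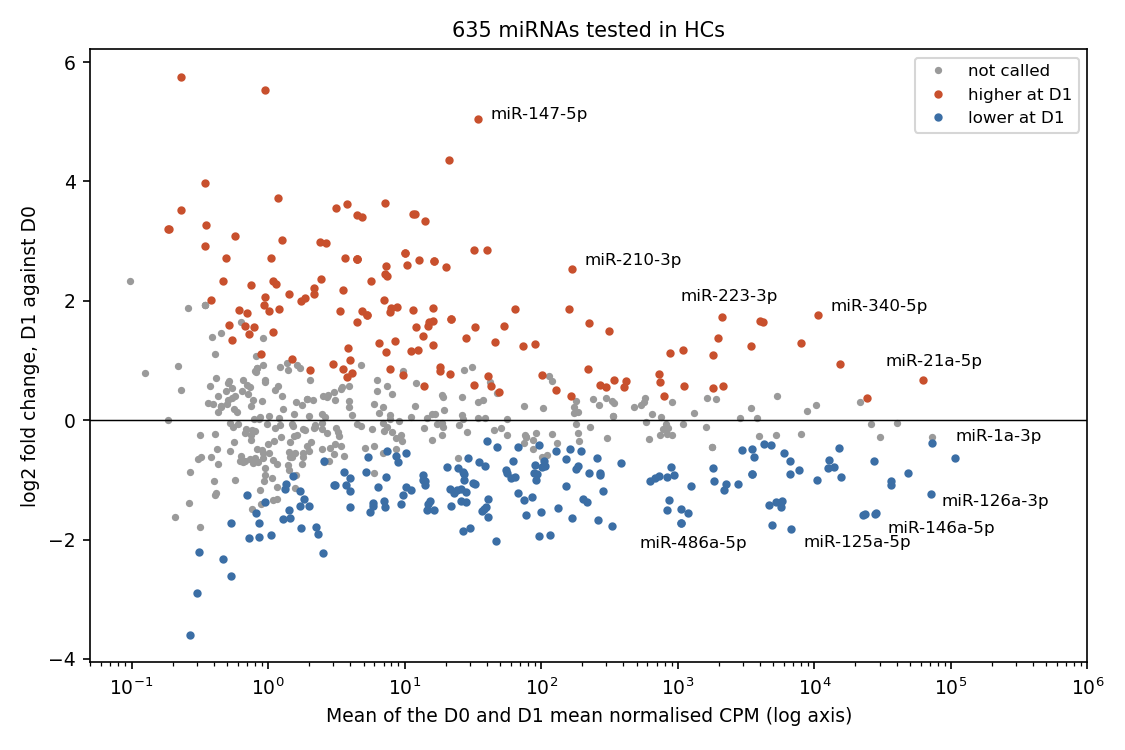
The log2 fold change at D1 against D0 (vertical axis) is plotted over the mean normalised CPM (horizontal log axis) for the 635 miRNAs tested in HCs, with 1 point per miRNA. The 148 miRNAs called higher and the 180 called lower are coloured, and the labels show miR-147-5p at 5.05 and miR-125a-5p at -1.82.

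The 10 largest rises among miRNAs of at least 100 normalised CPM were led by miR-210-3p, the hypoxia miRNA. It read 48.2, 48.8 and 51.5 normalised CPM at D0 and 240.1, 229, 256 and 417 at D1. All D1 libraries lay above all D0 libraries, with D1 replicate 4 the highest. The log2 fold change was 2.53 ± 0.25 (SE, edgeR adjusted p = 2.3e-08). Its passenger arm miR-210-5p read 1.64, 1.09 and 0.497 normalised CPM at D0 and 13.1, 12.6, 9.21 and 18.3 at D1, and rose by a log2 fold change of 3.63 ± 0.37 (edgeR adjusted p = 2.9e-08). Both tested members of the hypoxia list were thus higher at D1.

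MiR-340-5p was the most abundant of the 10 rises, with 5391, 4709 and 4355 normalised CPM at D0 and 16206, 14784, 15161 and 19147 at D1 (log2 fold change 1.76 ± 0.16, edgeR adjusted p = 1.1e-08). The groups were far apart, since the lowest D1 library was more than double the highest D0 library. MiR-7a-5p and miR-7b-5p differ by 1 edit and their reads may be shared between them. MiR-7a-5p read 2180.1, 1568 and 2324 normalised CPM at D0 and 5603, 7303, 6232 and 6186 at D1. MiR-7b-5p read 2057, 1472 and 2208 normalised CPM at D0 and 5368, 7074, 5909 and 5839 at D1. Both were higher, with log2 fold changes of 1.65 ± 0.16 and 1.66 ± 0.16 (edgeR adjusted p = 1.5e-08 and 1.5e-08). The passenger arm miR-7a-1-3p differed by 0.10 (log2, edgeR adjusted p = 0.69). MiR-467a-5p, of a family known from the Sfmbt2 array, read 68.7, 63.8 and 72.9 normalised CPM at D0 and 369.6, 229, 158 and 241 at D1 (log2 fold change 1.86 ± 0.29, edgeR adjusted p = 7.7e-06).

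**Figure D2:**
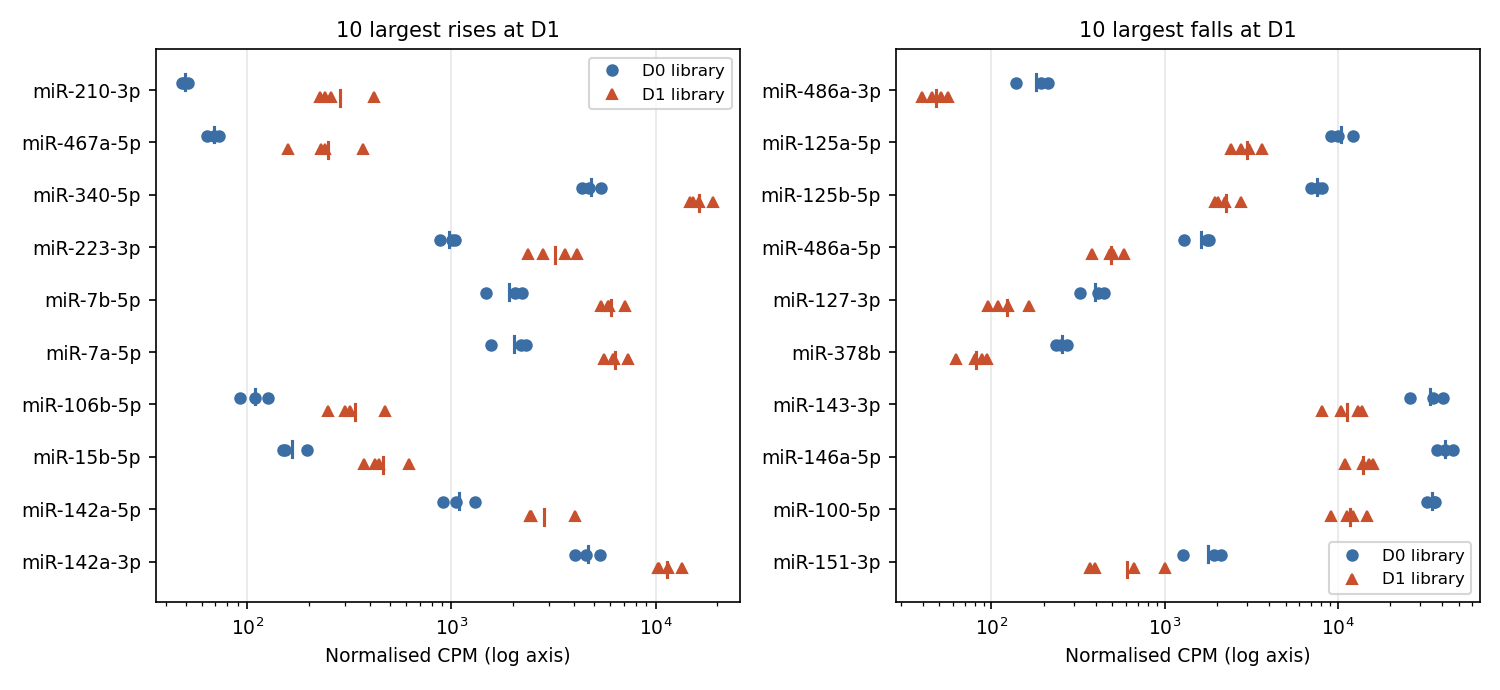
Normalised CPM (log axis) of the 10 miRNAs with the largest rises and the 10 with the largest falls at D1, with 1 circle per D0 library, 1 triangle per D1 library and a vertical tick at each group mean. The D0 and D1 libraries do not overlap for any of the 20, which was a condition of their choice, and miR-210-3p moved from 48.2 to 51.5 at D0 to 229 to 417 at D1.

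The leukocyte and myeloid list had 4 tested members, of which 3 were higher and none lower, with a median log2 fold change of 1.34. MiR-223-3p, the neutrophil and monocyte miRNA, read 1037, 884 and 1003 normalised CPM at D0 and 2812, 2367, 3579.9 and 4109 at D1 (log2 fold change 1.72 ± 0.17, edgeR adjusted p = 2.7e-08). MiR-142a-3p, the most abundant of the list, read 5310.2, 4049 and 4563 normalised CPM at D0 and 10329, 11481, 10303 and 13469.5 at D1 (1.30 ± 0.26, edgeR adjusted p = 1.5e-04). MiR-142a-5p read 1300.4, 1058 and 906 normalised CPM at D0 and 2423, 2446, 2444 and 4009 at D1 (1.38 ± 0.26, edgeR adjusted p = 9.5e-05). In all 3 the D1 libraries lay above the D0 libraries, and for miR-142a-5p D1 replicate 4 stood far above the others. MiR-223-5p did not pass the test, with 461, 454 and 599.9 normalised CPM at D0 and 794, 666, 479 and 558 at D1, overlapping groups and a difference of 0.30 ± 0.21 (edgeR adjusted p = 0.22). It was called higher with scaling by library size alone (0.78, edgeR adjusted p = 0.0018) and with the D0 and D1 libraries alone in the fit (0.48, edgeR adjusted p = 0.033).

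The lymphocyte list went the other way. All 4 tested members, both arms of miR-150 and of miR-342, were lower at D1, with a median log2 fold change of -0.97. MiR-150-5p, which restrains the transcription factor Myb in lymphocytes, read 5136, 2934 and 3230.3 normalised CPM at D0 and 1681, 2334, 1434 and 1706 at D1 (-1.07 ± 0.35, edgeR adjusted p = 0.013), and the highest value was D0 replicate 1. Without that library its change was -0.81 (edgeR adjusted p = 0.089). MiR-342-3p read 561, 390.2 and 493 normalised CPM at D0 and 212, 267, 413 and 274 at D1, with 1 D1 library inside the D0 range (-0.73 ± 0.20, edgeR adjusted p = 0.0041). The passenger arm miR-150-3p changed by -1.25 ± 0.36 (edgeR adjusted p = 0.0047), and miR-342-5p by -0.87 ± 0.32 (edgeR adjusted p = 0.028), a call that was lost without D0 replicate 2 or 4 or D1 replicate 3 or 4, at -0.89, -0.69, -0.74 and -0.79. With scaling by library size alone none of the 4 was called, and the median was -0.50. Of the 7 hematopoietic markers, whose sum was higher at D1, 3 were therefore called lower, namely miR-150-5p, miR-342-3p and miR-155-5p.

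Of 16 tested members of the inflammation list, 8 were higher and 3 lower, with a median log2 fold change of 0.51. With any 1 of the 7 libraries left out 7 were higher. The largest change of the whole list was that of miR-147, named here after its values were seen because it lay below 100 normalised CPM. MiR-147-5p read 1.59, 1.33 and 3.16 normalised CPM at D0 and 74.0, 55.4, 63.9 and 76.4 at D1 (5.05 ± 0.33, edgeR adjusted p = 2.0e-11). MiR-147-3p read 2.80, 1.42 and 1.72 normalised CPM at D0 and 52.4, 36.2, 34.0 and 39.5 at D1 (4.35 ± 0.34, edgeR adjusted p = 6.6e-10). Every D1 library was more than 10 times the highest D0 library on both arms. MiR-132-3p and miR-212-3p, processed from 1 transcript and also named after their values were seen, were higher, miR-132-3p from a mean of 16.7 to 48.9 normalised CPM (1.55 ± 0.21, edgeR adjusted p = 1.0e-06) and miR-212-3p from 1.497 to 5.24 (1.83 ± 0.41, edgeR adjusted p = 5.3e-04).

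Both arms of miR-21a rose. MiR-21a-5p read 42659, 48820.0 and 52191 normalised CPM at D0 and 67093, 85127, 59824 and 92788 at D1 (0.67 ± 0.17, edgeR adjusted p = 0.0020), which is 3.66% ± 0.294 of mature counts at D0 (SD, n = 3) and 8.13% ± 1.74 at D1 (SD, n = 4). MiR-21a-3p read 4.78, 6.12 and 6.59 normalised CPM at D0 and 23.8, 31.4, 38.03 and 45.3 at D1 (2.57 ± 0.32, edgeR adjusted p = 4.4e-07). The minor arm rose by more, though from under 10 normalised CPM. Mir21a lies at chr11:86584067-86584158 on the minus strand, in an exon of Vmp1.

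The members of the inflammation list that fell were miR-146a-5p, miR-146b-5p and miR-155-5p. MiR-146a-5p, known as a brake on the adaptors TRAF6 and IRAK1, read 46529.9, 37365 and 41973 normalised CPM at D0 and 13981, 15137, 16032 and 10968 at D1 (-1.58 ± 0.17, edgeR adjusted p = 6.5e-08). The D0 libraries were all more than double the D1 libraries. MiR-146b-5p, which differs from it by 2 edits, read 4503, 4366 and 4242 normalised CPM at D0 and 3139, 2947, 2616 and 2644 at D1 (-0.62 ± 0.14, edgeR adjusted p = 7.8e-04), and with scaling by library size alone it missed the threshold at -0.15 (edgeR adjusted p = 0.36). MiR-155-5p read 405, 133 and 163 normalised CPM at D0 and 110.1, 212, 121 and 106 at D1, and the groups overlapped. Its change of -0.76 ± 0.31 (edgeR adjusted p = 0.043) rested on D0 replicate 1. Without it the change was -0.13 (edgeR adjusted p = 0.75), and the call was also lost without D1 replicate 1, 3 or 4, at -0.67, -0.71 and -0.66. The rare 3p arm, miR-155-3p, went the other way, from a mean of 0.334 to 1.03 normalised CPM with overlapping groups (1.58 ± 0.62, edgeR adjusted p = 0.034).

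The macrophage list had 8 tested members, of which none was higher and 7 were lower, with a median of -1.14. MiR-125a-5p read 9149, 10092 and 12230.0 normalised CPM at D0 and 3069, 2752, 3665 and 2431 at D1 (-1.82 ± 0.22, edgeR adjusted p = 3.2e-07). Its cluster neighbour miR-99b-5p read 5932, 6790.3 and 7766 normalised CPM at D0 and 2769.9, 2821, 2446 and 2106 at D1 (-1.43 ± 0.21, edgeR adjusted p = 3.6e-06). Let-7e-5p, of the same cluster, read 17609.9, 16826 and 18117 normalised CPM at D0 and 14087, 12567, 11978 and 11875 at D1 and was lower by less (-0.47 ± 0.14, edgeR adjusted p = 0.0077), while with scaling by library size alone its difference was above 0 at 0.0029, and with D0 replicate 3 kept in it missed the threshold at -0.30 (edgeR adjusted p = 0.12). MiR-511-3p, from an intron of the macrophage mannose receptor gene, read 404, 284 and 319 normalised CPM at D0 and 229, 173, 407 and 283 at D1 with overlapping groups (-0.30 ± 0.29, edgeR adjusted p = 0.40), and stood at 0.18 with scaling by library size alone. The rare arm miR-511-5p, named after its values were seen, fell from a mean of 0.900 to 0.169 normalised CPM. Its change was -2.60 ± 0.64 (edgeR adjusted p = 0.0015), the largest fall of the list, but it rests on very low levels in both groups. Of the 8 members, 4 were lower and none was higher with scaling by library size alone. With the D0 and D1 libraries alone in the fit, 7 were tested and 6 were lower.

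The related miR-10, miR-99, miR-100 and miR-125 families had 13 tested members, 1 higher and 9 lower, with a median of -1.35. The 1 that was higher, named after its value was seen, was the passenger arm miR-10a-3p, at 0.74 (log2, edgeR adjusted p = 0.0020). MiR-125b-5p, which holds back differentiation in several blood lineages, read 7040.4, 7702 and 8069 normalised CPM at D0 and 2242, 1963, 2780.1 and 2044 at D1 (-1.75 ± 0.19, edgeR adjusted p = 7.8e-08). MiR-99a-5p read 39662, 43163 and 42904 normalised CPM at D0 and 17552, 14096, 14217 and 11411 at D1 (-1.55 ± 0.19, edgeR adjusted p = 3.0e-07). MiR-100-5p, which differs from miR-99a-5p by 1 edit, read 32967, 35904 and 36323 normalised CPM at D0 and 14704, 12240.4, 11294 and 9119 at D1 (-1.57 ± 0.20, edgeR adjusted p = 9.4e-07). Among tested miRNAs with a RefSeq sequence, all 3 with the seed CCCUGAG (miR-125a-5p, miR-125b-5p and miR-351-5p) and all 3 with the seed ACCCGUA (miR-99a-5p, miR-99b-5p and miR-100-5p) were lower, at medians of -1.75 and -1.55. MiR-10a-5p, of the same families, read 7894, 8943 and 11094 normalised CPM at D0 and 14367, 11062, 8803 and 10146 at D1 with overlapping groups (0.25 ± 0.17, edgeR adjusted p = 0.20), and was called higher at 0.73 with scaling by library size alone.

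The miR-17-92 cluster and its paralogs, known for their part in cell proliferation and in the growth of myeloid and lymphoid progenitors, had 22 tested members, 13 higher and none lower, with a median of 0.63. With 1 library left out 9 to 13 were higher, with the lowest count without D0 replicate 2 or D1 replicate 4. Without the filter on low counts 9 were higher, with libraries thinned to 1 depth 11 and with scaling by library size alone 16. Of the 6 tested miRNAs whose RefSeq sequence has the seed AAAGUGC, 5 were higher (median 1.15). MiR-20a-5p read 2346, 1625 and 2088 normalised CPM at D0 and 3254, 4160.0, 5818 and 5959.7 at D1 (1.25 ± 0.24, edgeR adjusted p = 9.9e-05). MiR-93-5p read 1255, 973 and 1227 normalised CPM at D0 and 1882, 2118, 2706 and 3074 at D1 (1.09 ± 0.19, edgeR adjusted p = 3.5e-05). MiR-106b-5p read 126, 109 and 92.1 normalised CPM at D0 and 301.4, 249.8, 319.9 and 473 at D1 (1.62 ± 0.26, edgeR adjusted p = 1.4e-05). The D1 libraries lay above the D0 libraries for all 3. The 5 with a RefSeq sequence and the seed AUUGCAC, which come from the same clusters or from related genes, gave no call. The most abundant of them, miR-25-3p, read 4845, 4238 and 4569.8 normalised CPM at D0 and 6949, 5503, 5201 and 6495 at D1 (0.41 ± 0.19, edgeR adjusted p = 0.077) and was called higher at 0.88 with scaling by library size alone. It was also called higher with the D0 and D1 libraries alone in the fit (0.58), with D0 replicate 3 kept in (0.56) and with libraries thinned to 1 depth (0.47). MiR-19b-3p was higher by 0.57 ± 0.22 (edgeR adjusted p = 0.032), a call lost without D0 replicate 1 or 2 or D1 replicate 3 or 4, at 0.59, 0.47, 0.41 and 0.50. MiR-15b-5p, which represses cell cycle genes and lies in an intron of Smc4 at chr3:69009772-69009835, read 195, 149 and 154 normalised CPM at D0 and 422, 374, 443 and 621 at D1 (1.49 ± 0.22, edgeR adjusted p = 3.6e-06). In the miR-15 and miR-16 family 4 of 12 tested were higher and 4 lower, near the 23.3% and 28.3% of all tested miRNAs (8 and 2 with scaling by library size alone). The higher ones were both arms of miR-15b, with miR-16-1-3p at 0.41 and miR-16-2-3p at 1.26 (log2, edgeR adjusted p = 0.017 and 0.0020). The lower ones were both arms of miR-195a, with miR-497a-5p and miR-322-3p, named like the other single members of this family after their values were seen. MiR-195a-5p changed by -1.11 (log2, edgeR adjusted p = 5.0e-05).

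Calls in both directions within 1 seed were found, among others, in the miR-148 and miR-152 family and in the miR-130 and miR-301 family. MiR-148a-3p read 10647, 10555 and 10457 normalised CPM at D0 and 26578, 22745, 14081 and 17229 at D1 (0.93 ± 0.26, edgeR adjusted p = 0.0041). MiR-148b-3p read 1873, 1678 and 1633 normalised CPM at D0 and 2769.7, 2415, 2373 and 2747 at D1 (0.58 ± 0.13, edgeR adjusted p = 7.3e-04). MiR-152-3p, 2 edits from miR-148b-3p, read 2405, 2528 and 2481 normalised CPM at D0 and 1245, 1192, 1335 and 1085 at D1 (-1.03 ± 0.14, edgeR adjusted p = 1.1e-06). MiR-148a-3p and miR-148b-3p were thus higher and miR-152-3p lower, with no overlap in any of the 3. The minor arms went with them, miR-148a-5p at 0.82 and miR-152-5p at -1.44 (log2, edgeR adjusted p = 0.0031 and 1.0e-05). In the miR-130 and miR-301 family 6 of 7 tested members were higher and miR-130a-3p was lower. MiR-130a-3p read 16.5, 19.6 and 18.2 normalised CPM at D0 and 9.99, 8.72, 9.81 and 7.66 at D1 (-1.005 ± 0.26, edgeR adjusted p = 0.0026), and with scaling by library size alone missed the threshold at -0.53. MiR-130b-3p, 2 edits away, read 6.27, 3.89 and 4.38 normalised CPM at D0 and 13.1, 9.59, 11.4 and 14.7 at D1 (1.33 ± 0.35, edgeR adjusted p = 0.0025). MiR-301a-3p and miR-301b-3p were higher by 1.88 ± 0.32 and 2.01 ± 0.32 (edgeR adjusted p = 2.9e-05 and 9.7e-06), and Mir301b and Mir130b are neighbours at chr16:17124400-17124496 and chr16:17124061-17124142. MiR-130b-5p, at a mean of 52.6 normalised CPM at D0 and 127 at D1, was the most abundant member (1.27 ± 0.30, edgeR adjusted p = 0.0010). MiR-301b-5p lost its call without D0 replicate 4 (1.71) or D1 replicate 1 (1.53), and miR-301a-5p without D1 replicate 4 (0.66). In the miR-221 and miR-222 pair, known to repress the cell cycle inhibitor Cdkn1b, 3 of 4 tested were higher and none lower. MiR-221-3p rose by 0.55 ± 0.14 (edgeR adjusted p = 0.0020) and miR-222-3p by 0.60 ± 0.14 (edgeR adjusted p = 9.0e-04).

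The miR-466, miR-467, miR-297 and miR-669 families, known from a rodent-specific array in an intron of Sfmbt2 but with members on other chromosomes too, had 56 of 80 listed miRNAs tested, 45 higher and none lower, with a median of 2.06. Most were rare. MiR-467a-5p alone passed 100 normalised CPM, followed by miR-467c-5p, at 18.7, 14.1 and 14.4 normalised CPM at D0 and 53.8, 36.5, 30.0 and 42.3 at D1 (1.37 ± 0.26, edgeR adjusted p = 9.5e-05). MiR-669c-5p read 17.6, 18.9 and 21.7 normalised CPM at D0 and 55.4, 37.7, 20.0 and 25.9 at D1, with D1 replicate 3 inside the D0 range (0.84 ± 0.40, edgeR adjusted p = 0.083). It was called higher without that library (1.03), with scaling by library size alone (1.31), without the filter on low counts (0.79) and with the D0 and D1 libraries alone in the fit (1.01). Many of these miRNAs are near-identical and some were listed with identical counts, so the number that changed is uncertain. Which members were tested depended on the filter on low counts and on the libraries fitted. A member very low at D0 could pass this filter only through other days, and could then hardly be called lower. With the D0 and D1 libraries alone, 40 were tested and all 40 were higher. With libraries thinned to 1 depth, 40 of 51 were higher and none lower. The direction of the calls therefore describes only the members tested. The imprinted Dlk1-Dio3 region on chromosome 12 had 51 of 94 listed miRNAs tested, none higher and 31 lower, with a median of -1.25. MiR-127-3p, at chr12:109592846-109592915 antisense to Rtl1, read 323, 411 and 448 normalised CPM at D0 and 164, 109, 125.1 and 94.9 at D1 (-1.68 ± 0.22, edgeR adjusted p = 1.0e-06). MiR-379-5p read 108, 116 and 140.3 normalised CPM at D0 and 58.5, 52.1, 47.8 and 41.9 at D1 (-1.28 ± 0.24, edgeR adjusted p = 8.0e-05), and miR-541-5p fell by 1.32 on the log2 scale (SE 0.24, edgeR adjusted p = 5.9e-05). With scaling by library size alone 21 members were lower and 1 higher. The number lower was 24 without D0 replicate 4 or D1 replicate 4, and 24 of 48 with libraries thinned to 1 depth. Without D1 replicate 3, 28 were lower and 1 higher. In this region too the members tested depended on the filter and on the libraries fitted. With the D0 and D1 libraries alone, 29 were tested and 20 were lower.

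**Figure D3:**
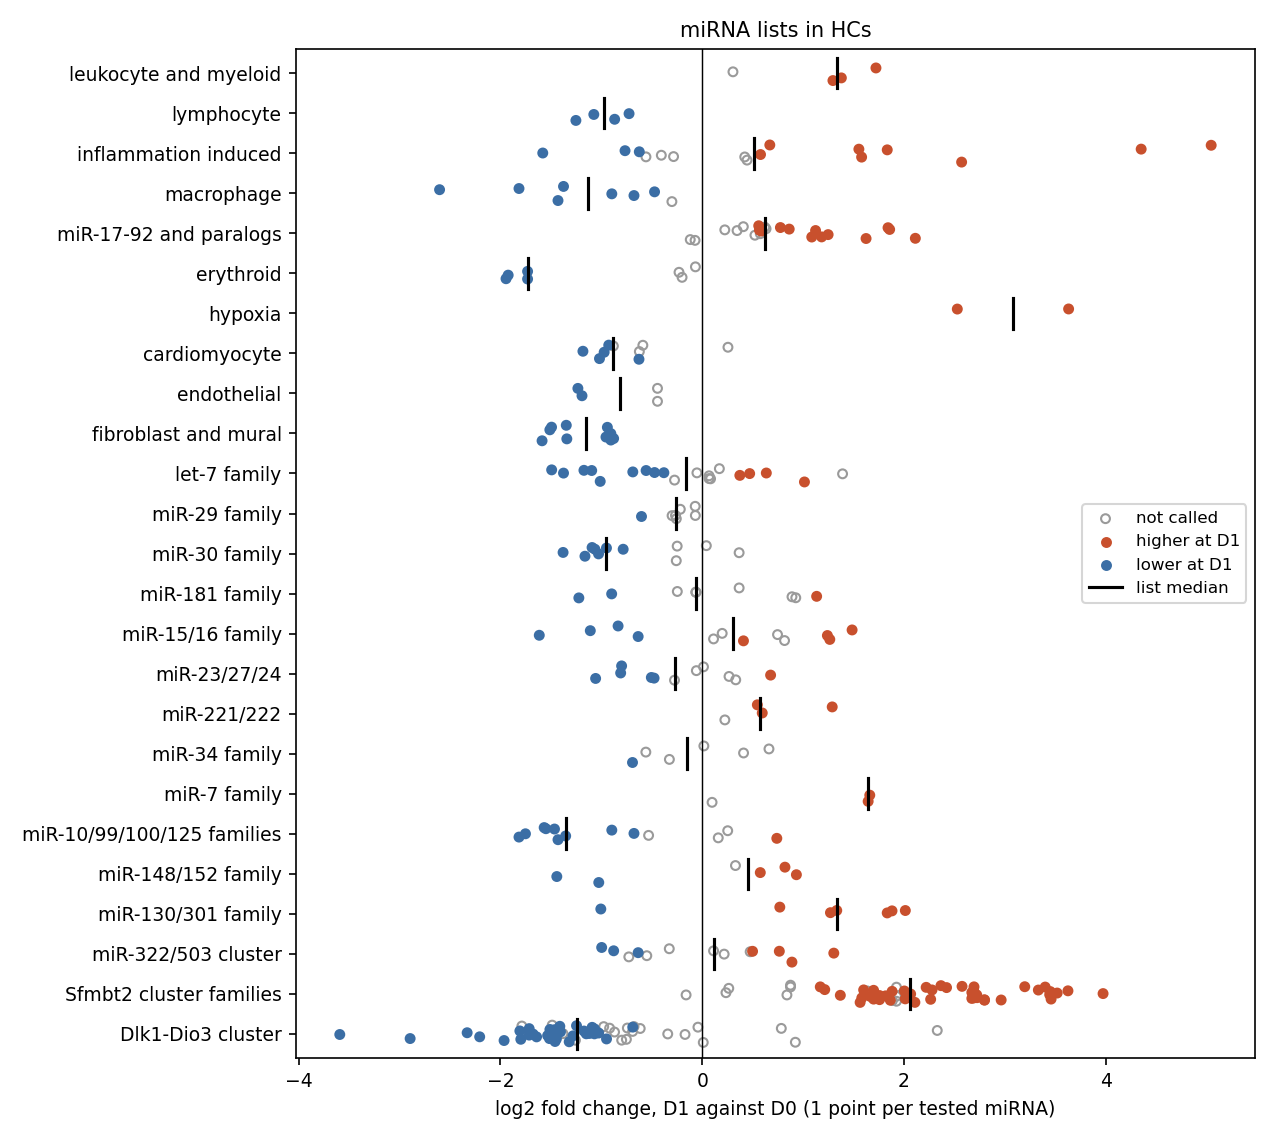
The log2 fold change at D1 against D0 of each tested member of 25 miRNA lists, with 1 point per miRNA, filled where it passed the test, and a black bar at the median of the list. The Sfmbt2 families sit to the right with a median of 2.06, and the fibroblast and mural, macrophage and Dlk1-Dio3 lists sit to the left with medians of -1.15, -1.14 and -1.25.

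Among the lists of miRNAs typical of fibroblasts, mural cells, ECs and CMs, no tested member was called higher at D1. Of all tested miRNAs 23.3% were called higher and 28.3% lower. In the fibroblast and mural list all 10 tested members were lower, with a median of -1.15, and 7 of 10 with scaling by library size alone. MiR-143-3p, of smooth muscle cells, read 26287, 40862 and 35418 normalised CPM at D0 and 13816, 13117, 10479.7 and 8099 at D1 (-1.59 ± 0.21, edgeR adjusted p = 1.0e-06), and its cluster partner miR-145a-5p read 1406, 1478 and 1813 normalised CPM at D0 and 451, 614, 724 and 434 at D1 (-1.49 ± 0.25, edgeR adjusted p = 1.8e-05). MiR-199a-3p and miR-199b-3p have 1 sequence and identical counts, and fell by 0.91 on the log2 scale (SE 0.19, edgeR adjusted p = 2.6e-04). None of these groups overlapped. In the endothelial list 2 of 4 were lower. MiR-126a-3p read 70510.3, 109993 and 120231 normalised CPM at D0 and 52253, 51044, 38644 and 28739 at D1 (-1.23 ± 0.22, edgeR adjusted p = 4.6e-05), from 7.65% ± 1.87 of mature counts at D0 (SD, n = 3) to 4.52% ± 1.09 at D1 (SD, n = 4). Mir126b lies antisense to Mir126a, at chr2:26591363-26591420 within chr2:26591357-26591429, and miR-126b-3p and miR-126a-5p held nearly the same counts, so these could not be told apart. They differed by -0.44 ± 0.21 (edgeR adjusted p = 0.080) and by 0.03 with scaling by library size alone. Without the filter on low counts both were called lower (-0.51, edgeR adjusted p = 0.038). MiR-126b-5p changed by -1.19 ± 0.23 (edgeR adjusted p = 1.2e-04). Most of its sequence is the reverse complement of miR-126a-3p, so these may share reads too, which was not tested. In the cardiomyocyte list 5 of 9 were lower and none higher, and with scaling by library size alone none was called. MiR-1a-3p, the most abundant miRNA of HCs at D0, read 146336, 133663 and 112538 normalised CPM at D0 and 59272, 82889, 120653 and 76159 at D1 and the groups overlapped. Its change of -0.63 ± 0.21 (edgeR adjusted p = 0.014) missed the threshold without D0 replicate 1 (-0.56) or D1 replicate 1 (-0.49), and with the D0 and D1 libraries alone in the fit (-0.46). Its share was 10.0% ± 1.52 of mature counts at D0 (SD, n = 3) and 9.03% ± 2.77 at D1 (SD, n = 4). MiR-133a-3p, miR-133b-3p and miR-499-5p changed by -0.97 ± 0.26, -1.02 ± 0.26 and -0.93 ± 0.26 (edgeR adjusted p = 0.0032, 0.0021 and 0.0038). The marker sums that moved with these lists are those given above.

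In the erythroid list 4 of 7 tested members were lower, and these were the 4 arms of miR-486a and miR-486b, which is also found in muscle. MiR-486a-5p, with counts identical to those of miR-486b-5p, read 1297, 1763 and 1801 normalised CPM at D0 and 486, 502, 583 and 382 at D1 (-1.73 ± 0.24, edgeR adjusted p = 2.7e-06). MiR-486a-3p read 138, 213 and 194 normalised CPM at D0 and 51.2, 45.2, 56.0 and 39.8 at D1 (-1.92 ± 0.26, edgeR adjusted p = 1.9e-06). MiR-451a, the most abundant miRNA of red blood cells, read 162, 162 and 66.7 normalised CPM at D0 and 75.7, 98.6, 185 and 85.8 at D1, with overlapping groups (-0.23 ± 0.43, edgeR adjusted p = 0.68, and 0.24 with scaling by library size alone). The sum of 3 erythroid markers (miR-451a, miR-144-3p and miR-486a-5p) was 0.116% to 0.149% of mature counts at D0 and 0.0537% to 0.0849% at D1, and miR-486a-5p made up most of it. Of the other large falls, miR-378b read 254, 273 and 235 normalised CPM at D0 and 94.5, 80.8, 87.9 and 62.4 at D1 (-1.64 ± 0.17, edgeR adjusted p = 5.1e-08), but it lies 1 edit from miR-378c. MiR-151-3p read 1286, 1941 and 2129.9 normalised CPM at D0 and 1000.1, 663, 394 and 369.5 at D1 (-1.56 ± 0.30, edgeR adjusted p = 9.5e-05), and the D1 libraries spread over more than 2-fold.

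In the abundant let-7 family 4 of 20 tested members were higher and 9 lower, with a median of -0.16, which became 0.31, with 10 higher and 5 lower, under scaling by library size alone. Let-7a-5p read 87341, 77712 and 83491 normalised CPM at D0 and 67776, 68548, 59758 and 58595 at D1 (-0.38 ± 0.13, edgeR adjusted p = 0.019) against 0.09 with scaling by library size alone, and missed the threshold without D0 replicate 4 (-0.37) or D1 replicate 4 (-0.34), with D0 replicate 3 kept in (-0.23) and with the D0 and D1 libraries alone in the fit (-0.21). Let-7f-5p read 86254, 74927 and 78668 normalised CPM at D0 and 68180.3, 69556, 63726 and 62985 at D1 (-0.27 ± 0.13, edgeR adjusted p = 0.078) against 0.20 with scaling by library size alone. The largest falls among abundant members were those of let-7b-5p, at -1.01, and let-7c-5p, at -0.69 (log2, edgeR adjusted p = 3.9e-06 and 1.5e-04), and the 4 rises were those of let-7i-5p, let-7f-2-3p and both arms of miR-98, all named after their values were seen. Without D0 replicate 4 or D1 replicate 2 the family had 2 rises. Members of this family are near copies of each other and may share reads. In the miR-30 family 7 of 11 were lower and none higher, with a median of -0.95. MiR-30d-5p read 46999.9, 50353 and 52511 normalised CPM at D0 and 25632, 23783, 23048 and 21295 at D1 (-1.09 ± 0.16, edgeR adjusted p = 3.3e-06). MiR-30a-5p and miR-30e-5p fell by 1.03 and 0.95 on the log2 scale (SE 0.15 and 0.15, edgeR adjusted p = 3.5e-06 and 1.3e-05). The other lists gave few calls or mixed ones. In the miR-23, miR-27 and miR-24 clusters 1 of 11, miR-27a-5p, was higher and 5, led by miR-24-1-5p and miR-24-3p, were lower (median -0.27, and 0.20 with scaling by library size alone). In the miR-181 family, known from lymphocyte development, miR-181b-1-3p was higher and miR-181a-5p and miR-181a-2-3p were lower among 9 tested (median -0.06, against 0.42 with scaling by library size alone). No member was higher without D0 replicate 2 or 4 or D1 replicate 3 or 4, or with the D0 and D1 libraries thinned to 1 depth, and 1 was lower without D0 replicate 2 or 4 or D1 replicate 1, 2 or 4, or with thinning. In the miR-29 family, which represses collagens, 1 of 7 was lower, miR-29c-5p, and in the miR-34 family 1 of 6, miR-34a-5p. Their medians of -0.26 and -0.15 became 0.22 and 0.32 with scaling by library size alone. No miR-29 was called without D0 replicate 2 or D1 replicate 1, or without the filter on low counts. The same held with scaling by library size alone and with the D0 and D1 libraries alone in the fit. Of the miR-29 members 2 were lower without D1 replicate 3 and 3 with D0 replicate 3 kept in. No miR-34 was called without D0 replicate 4 or D1 replicate 1 or 2, or with thinning. With scaling by library size alone 1 miR-34 was higher and none lower. The single members named for these lists were named after their values were seen. In the miR-322 and miR-503 cluster 4 of 13 were higher, led by miR-450b-5p at 1.30 (log2, edgeR adjusted p = 3.5e-06), and 3 were lower, with a median of 0.11. These counts, like the 4 rises of 20 in the let-7 family, are near the 23.3% higher and 28.3% lower over all tested miRNAs.

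The balance between the arms of a hairpin was tested on the log2 scale as 5p counts over 3p counts, which does not depend on library scaling. Of 154 hairpins, 46 (29.9%) changed at D1 by limma at an adjusted p under 0.05, 23 (14.9%) towards the 5p arm and 23 (14.9%) towards the 3p arm. Without D1 replicate 4 the count was 30, and with D0 replicate 3 kept in it was 24. MiR-21a changed most among those with at least 50 counts on each arm. Its ratio was 13.12, 12.96 and 12.95 at D0 and 11.45, 11.40, 10.62 and 10.998 at D1, so the 5p arm stayed far ahead and the 3p arm gained, by -1.89 ± 0.26 (limma adjusted p = 2.8e-05). The 3p arm rested on few reads, 99 to 146 per D0 library and 136 to 491 per D1 library. In miR-223 the ratio was -1.17, -0.96 and -0.74 at D0 and -1.82, -1.83, -2.90 and -2.88 at D1, and both D1 replicates 3 and 4 lay lower than the other 2. It changed by -1.40 ± 0.30 (limma adjusted p = 0.0021). MiR-146b and miR-132 also moved towards the 3p arm, by -1.21 ± 0.22 and -1.14 ± 0.22 (limma adjusted p = 5.3e-04 and 6.3e-04). In miR-146b the 2 arms changed in opposite directions, miR-146b-5p by -0.62 and miR-146b-3p by 0.58 (edgeR adjusted p = 0.037). MiR-503 moved towards the 5p arm. Its ratio was 1.87, 1.57 and 1.28 at D0 and 3.16, 2.64, 2.97 and 3.42 at D1, without overlap, and changed by 1.47 ± 0.31 (limma adjusted p = 0.0018). With D0 replicate 3 kept in, the changes of miR-21a and miR-223 were -1.24 and -0.99 and missed the threshold (limma adjusted p = 0.051 and 0.067).

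The change in HCs was compared with that in FBs, whose libraries had the same RNA input and number of PCR cycles, and in ECs, which differed in both, by a test of the difference itself in 1 fit of 95 libraries and 758 miRNAs. Between HCs and FBs 112 miRNAs differed in their change at D1 (14.8%), 52 more positive and 60 more negative in HCs. Between HCs and ECs 104 differed (13.7%), 57 more positive and 47 more negative. This count was 62 without D0 replicate 4 and 65 without D0 replicate 2 of HCs. With only the D0 and D1 libraries of both cell types in the fit, 197 of 484 tested miRNAs differed. By the methods of the study, the pools of 1 day came from matched animals across cell types, and the fit treated them as independent. With the replicate number as a block, 116 miRNAs differed from FBs and 104 from ECs. This block shares each number over all days, so it cannot model animals matched within 1 day. In the fit without a block 24 miRNAs changed in FBs and 1, miR-147-5p, in ECs. The log2 difference of miR-210-3p at D1 was 0.36 in FBs and 0.71 in ECs, and the HC change exceeded these by 2.17 (SE 0.51, edgeR adjusted p = 0.0013) and 1.82 (SE 0.52, edgeR adjusted p = 0.011). That of miR-340-5p was -0.19 in FBs and -0.23 in ECs, and the HC change exceeded these by 1.95 and 2.00 (edgeR adjusted p = 5.8e-04 and 5.9e-04). MiR-467a-5p differed in the same direction, by 2.02 and 2.31 (edgeR adjusted p = 0.0012 and 4.2e-04). MiR-7a-5p, miR-7b-5p and miR-15b-5p rose by more in HCs than in ECs, by 1.11, 1.12 and 1.46 (edgeR adjusted p = 0.031, 0.035 and 0.031), and were not shown to differ from FBs. For miR-223-3p and miR-21a-5p no difference from either was shown. The log2 difference of miR-223-3p was 2.59 in FBs and 2.15 in ECs, and the differences of -0.86 (SE 0.81) and -0.43 (SE 0.86) had edgeR adjusted p = 0.51 and 0.82. At D0 miR-223-3p averaged 0.55 CPM in FBs and 0.83 CPM in ECs, against 747 CPM in HCs. Its changes in FBs and ECs thus started from a very low level. The log2 difference of miR-21a-5p was 0.59 in FBs and 0.60 in ECs, and the HC change differed from these by 0.09 (SE 0.47) and 0.07 (SE 0.48).

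Among the falls, miR-146a-5p differed by -0.08 in FBs and -0.37 in ECs, neither past the test, and the HC change was more negative, with differences of -1.49 and -1.21 (edgeR adjusted p = 9.8e-05 and 0.0023). MiR-125a-5p and miR-125b-5p differed from FBs by -1.40 and -1.53 (edgeR adjusted p = 0.0026 and 4.6e-04) and from ECs by -1.65 and -1.84 (edgeR adjusted p = 5.9e-04 and 4.0e-05). The most negative difference from FBs among miRNAs of at least 100 normalised CPM was that of miR-155-5p, which rose by 1.82 in FBs (edgeR adjusted p = 2.3e-06) and differed by -2.54 (edgeR adjusted p = 2.0e-06), where its HC value has the limit given above. MiR-486a-5p and miR-486a-3p followed, at -2.15 and -2.10 (edgeR adjusted p = 0.0036 and 0.012). At D0 miR-155-5p averaged 6.43 CPM in FBs, against 180 CPM in HCs, so its rise in FBs started from a low level.

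**Figure D4:**
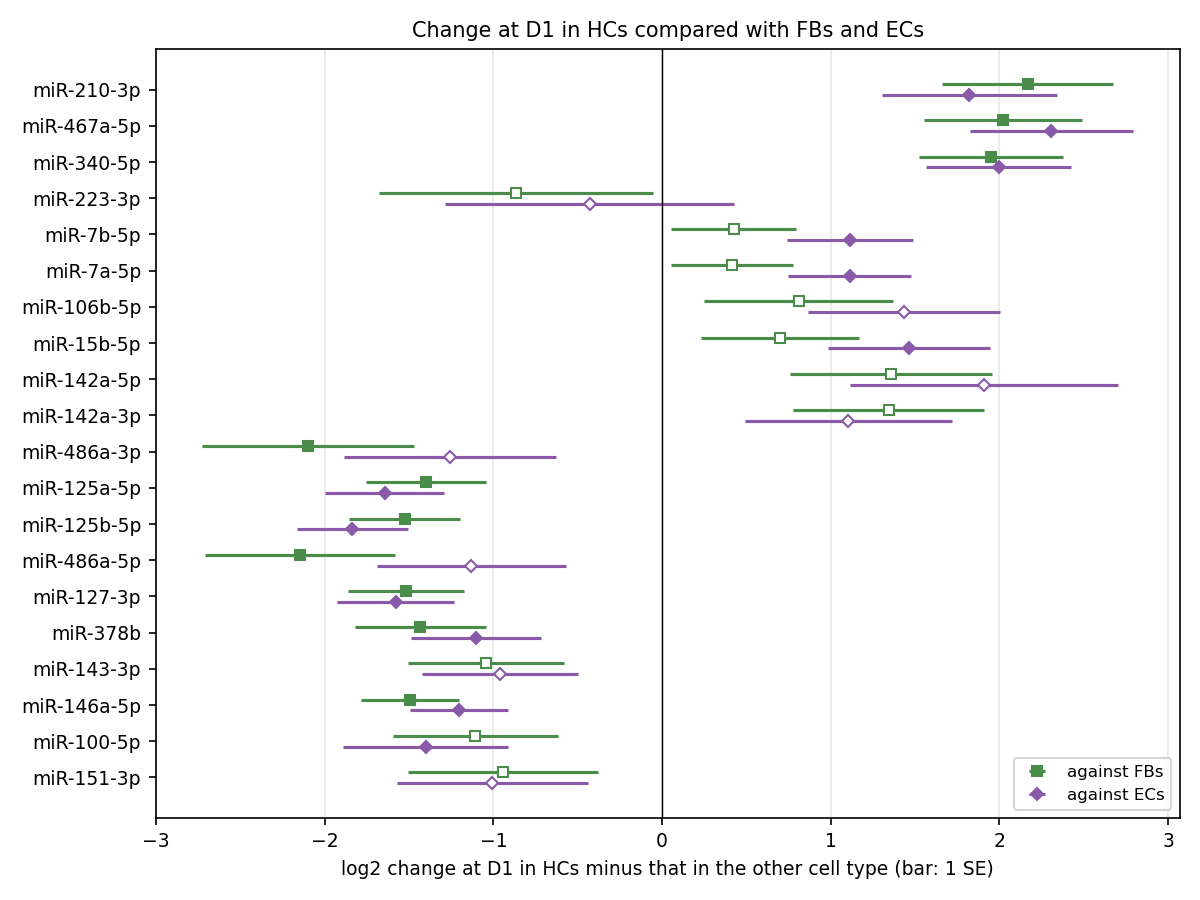
The log2 change at D1 in HCs minus that in FBs (squares) and in ECs (diamonds) for the 10 largest rises and 10 largest falls of HCs, with a bar of 1 SE and a filled symbol where the difference passed the test. MiR-210-3p, miR-467a-5p and miR-340-5p lie about 2 to the right against both cell types, and miR-223-3p lies at -0.86 and -0.43 with open symbols. At D0 miR-223-3p averaged only 0.55 CPM in FBs and 0.83 CPM in ECs.

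The same HC fit gave the later days against the same 3 D0 libraries, which all these comparisons share. MiR-147-5p stood at 5.05, 4.74, 4.18, 3.57 and 2.23 (log2, each past the test) in the order of days D1, D3, D7, D14, D28. MiR-210-3p stood at 2.53, 3.10, 1.21, 0.72 and 0.50, of which the last did not pass. MiR-340-5p gave 1.76, 1.87, 1.04, 0.48 and 0.44, all past the test. MiR-223-3p was called at D1, D3 and D28, with 1.72, 1.35 and 0.51, but not at D7 or D14, with 0.23 and 0.21. Among the falls, miR-125a-5p stood at -1.82, -2.86, -1.68 and -1.02 up to D14 and at -0.41 at D28, where the test was not passed. MiR-146a-5p was called lower up to D7 (-1.58, -2.01 and -0.82) and stood at -0.23 and 0.13 afterwards. MiR-127-3p was lower at D1 and D3 (-1.68 and -1.38) and above D0 at D28 (0.73, past the test). MiR-378b was lower at every day, from -1.64 at D1 to -1.78 at D28.

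**Figure D5:**
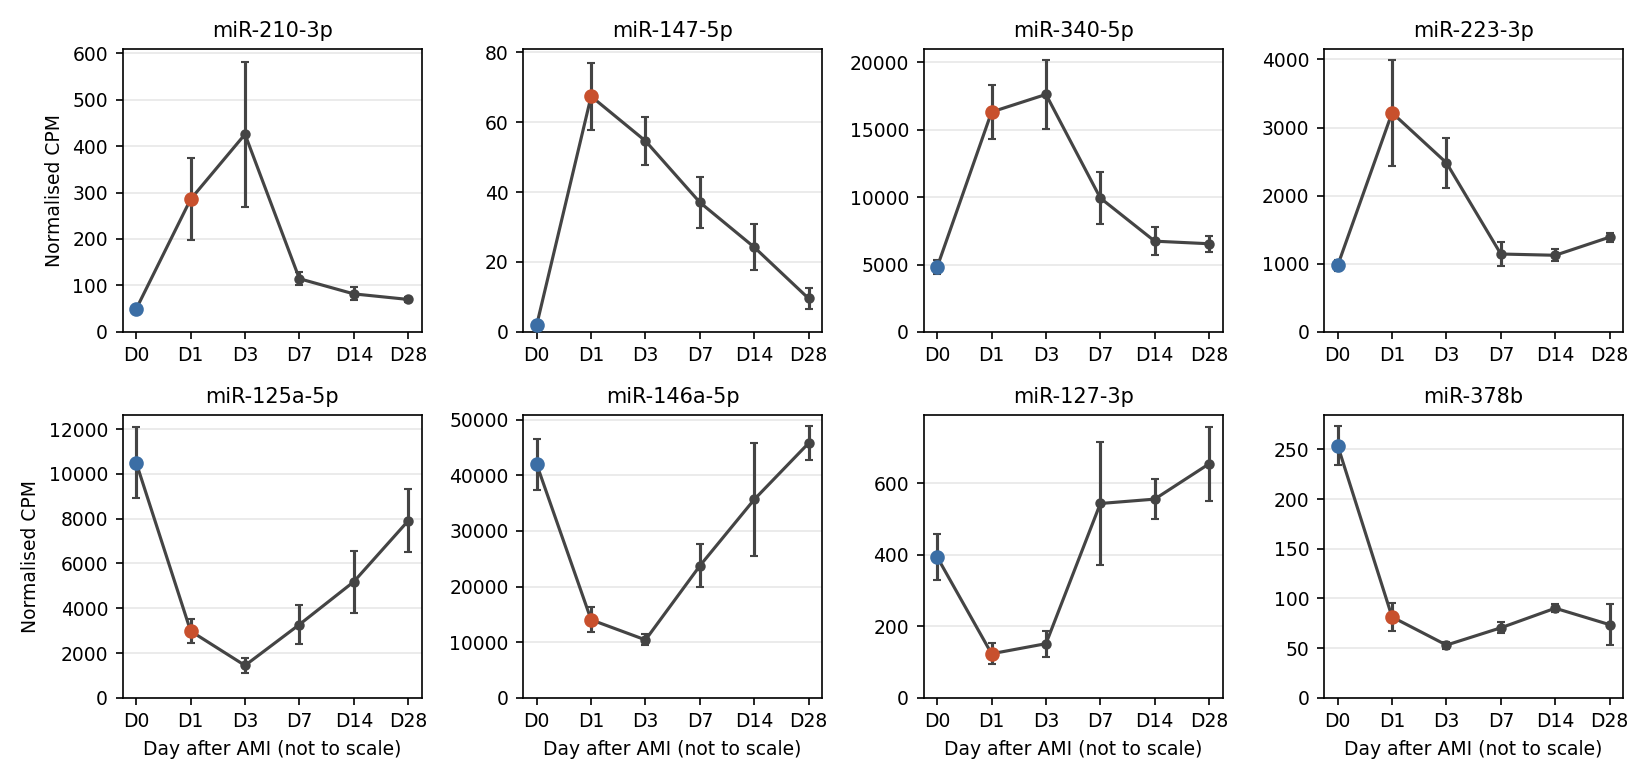
Mean normalised CPM of 8 miRNAs in HCs at D0, D1, D3, D7, D14 and D28 (linear axes starting at 0, days not to scale), with bars of 1 SD over 3 libraries at D0 and 4 at each other day. D0 is blue and D1 orange, and the means moved from 49.5 to 286 for miR-210-3p and from 10490.5 to 2979 for miR-125a-5p between them.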

How the data were processed

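The authors isolated total RNA from sorted heart cells, prepared small RNA libraries with 150 ng of it and 15 PCR cycles for HCs, trimmed reads with Trim Galore, removed those under 18 nt and counted mature miRNAs of miRBase 21 with the nf-core smrnaseq pipeline. The submitters' processing notes name Bowtie2, SAMtools and mm10, and how reads with several matches were treated is not given in the sources used here. The deposited values are raw counts per mature miRNA, per the labels. The row of unmatched reads, 34.3% to 73.8% of a library, stayed out of library sizes and tests.

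Counts of 23 HC libraries of all days were fitted with edgeR 4.0.16 in R 4.3.3 (TMM factors, filterByExpr, glmQLFit and glmQLFTest, Benjamini-Hochberg over 635 miRNAs, threshold 0.05), and D1 was contrasted with D0. Arm ratios, log2 of 5p over 3p counts with a pseudocount of 0.5 and a mean of at least 10 counts per arm, were fitted with limma 3.58.1. Cell types were compared as interaction terms in 1 edgeR fit of 95 libraries. SEs of edgeR values were derived from the F statistic. Depth was 4684153 to 29504666 counts per library, and libraries at D1 were shallower. The scripts were tested on simulated data. Alternatives were DESeq2 1.42.0, library size only, no filter on low counts, D0 and D1 libraries only, the shallow D0 library kept in, a replicate block, libraries thinned to 1 depth and each library left out.

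Named miRNAs were the 10 largest rises and falls among those called, with a mean of at least 100 normalised CPM and no overlap, the 5 most abundant, up to 4 of the highest level per list (7 for the miR-130 and miR-301 family), the 5 hairpins with the largest arm changes of at least 50 counts per arm, both arms of miR-21a, and the 3 highest and 3 lowest HC and FB differences. The CPM of this rule was taken as normalised CPM. The members, lists and rules were chosen with earlier results of these data known. RefSeq sequences on GRCm38.p6 were matched for 515 of the 635 miRNAs. The study left out 1 unnamed HC library of D0 as an outlier.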

Additional observations from a re-analysis of the deposited data

Results flagged for a closer look

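Among 83 groups of values checked, 4 D1 groups held 1 library far from the other 3, where chance gives about 1 in 20. The gap to the nearest library, as a share of the range of the group, was 0.855 for miR-210-3p, 0.985 for miR-142a-5p and 0.835 for miR-212-3p, in each of which D1 replicate 4 was the highest, and 0.859 for miR-155-5p, in which D1 replicate 2 was the highest.

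The change at D1 differed between HCs and another cell type, by the interaction test of edgeR, for 28 of the 78 named miRNAs against FBs and 28 of 78 against ECs, where 14.8% and 13.7% of all miRNAs differed. The named miRNAs were chosen in part for large changes in HCs and large differences from FBs, so these counts are a description. The HC change minus that in FBs was positive, on the log2 scale, for miR-147-3p (4.04), miR-147-5p (3.83), miR-210-5p (3.04), miR-301b-3p (2.59), miR-301a-3p (2.18), miR-210-3p (2.17), miR-467a-5p (2.02), miR-21a-3p (1.95), miR-340-5p (1.95) and miR-301a-5p (1.38). It was negative for miR-155-5p (-2.54), miR-486a-5p (-2.15), miR-486b-5p (-2.15), miR-486a-3p (-2.10), miR-145a-5p (-2.01), miR-125b-5p (-1.53), miR-127-3p (-1.52), miR-146b-5p (-1.51), miR-146a-5p (-1.49), miR-378b (-1.43), miR-125a-5p (-1.40), miR-126b-5p (-1.37), miR-126a-3p (-1.32), miR-150-5p (-1.32), miR-99b-5p (-1.24), miR-342-3p (-1.18), miR-130a-3p (-1.16) and miR-152-3p (-0.93). The HC change minus that in ECs was positive, on the log2 scale, for miR-147-5p (2.39), miR-130b-5p (2.32), miR-467a-5p (2.31), miR-130b-3p (2.27), miR-147-3p (2.23), miR-467c-5p (2.16), miR-340-5p (2.00), miR-669c-5p (1.91), miR-210-3p (1.82), miR-15b-5p (1.46), miR-132-3p (1.39), miR-7b-5p (1.12) and miR-7a-5p (1.11). It was negative for miR-125b-5p (-1.84), miR-125a-5p (-1.65), miR-127-3p (-1.58), miR-100-5p (-1.40), miR-541-5p (-1.37), miR-99a-5p (-1.36), miR-379-5p (-1.30), miR-99b-5p (-1.22), miR-126a-3p (-1.21), miR-146a-5p (-1.21), miR-126b-5p (-1.20), miR-378b (-1.11), miR-30d-5p (-1.05), miR-152-3p (-1.03) and miR-30a-5p (-1.001). Sets with identical or nearly identical counts, such as miR-486a-5p and miR-486b-5p, appear under each of their names.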

How the results depend on the processing

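With scaling by library size alone, 238 miRNAs were higher and 97 lower at D1, against 148 and 180, and the direction reversed for let-7a-5p (0.0934), let-7f-5p (0.20), let-7e-5p (0.0029), miR-511-3p (0.18), miR-451a (0.24), miR-126b-3p (0.0316) and miR-126a-5p (0.0316). A log2 threshold of 1 left 108 lower. The number of miRNAs tested differed between settings. Calls were 342 of 635 with DESeq2 and 312 of 1435 without the filter on low counts. They were 310 of 509 with the D0 and D1 libraries only and 330 of 608 with D0 replicate 3 kept in. With libraries thinned to 1 depth they were 283 of 593. Leaving out each library gave 279 to 318 calls, 124 to 147 higher and 153 to 171 lower. The arm ratios gave 24 calls with D0 replicate 3 kept in, 28 with the D0 and D1 libraries only and 30 (without D1 replicate 4) to 46 with each library left out. The differences from ECs gave 197 calls of 484 tested with the D0 and D1 libraries of both cell types only. With each library left out they gave 62 (without D0 replicate 4) or 65 (without D0 replicate 2) to 105, and those from FBs 88 to 116. The causes were not tested. Correlations between same-numbered D0 and D1 libraries of HCs were -0.37, -0.04 and -0.32, and those between other pairs -0.25 to 0.43. With so few libraries these values cannot show whether the numbers pair the samples. A replicate block gave 330 calls, 154 higher and 176 lower, with 44 arm ratios, 116 differences from FBs and 104 from ECs. Among the named miRNAs it ended only the call of miR-155-5p (-0.68). Depth limits rare miRNAs, since 1 count at D1 stands for more CPM than at D0.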
